A study of Mus musculus with 3 samples.

Results

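The genes described here are 6 mouse genes that encode receptors for the Fc part of immunoglobulin G (IgG) or their shared signalling chain, chosen by name. They are Fcgr2b, Fcgr1, Fcgr3, Fcgr4, Fcer1g and Fcgrt, and all 6 had a column in both count tables, out of 21550 genes in the first table and 22517 in the second. Their transcripts were followed in Kupffer cells (KCs), monocyte-derived macrophages (MoMFs), classical and patrolling monocytes, neutrophils, B cells and liver sinusoidal endothelial cells (LSECs). The question was where the inhibitory receptor gene Fcgr2b was read in the liver, where the activating receptor genes were read, and how the share of Fcgr2b stood in each cell class of each library.

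The study compared mouse livers on a normal and on a high-fat, high-cholesterol (HFHC) diet by BD Rhapsody single-cell RNA sequencing, in which transcripts are counted as unique molecular identifiers (UMIs), 1 per captured molecule. The first library, called the WT library here, has a table named WT, and the study's wild-type mice were C57BL/6J. Its table was matched only by elimination to the sample labelled MCD, and the library name in the table header is neither that label nor a diet. That name begins with APAP, a short name of acetaminophen, and the study's text describes no treatment with this drug. The study's text describes a normal chow diet. The diet of this library is therefore not used as a fact below, and its match to a sample and the strain of its mice are inferences. The second library, called the HFHC pool, held cells of wild-type mice and of mice without Chil1 (Chil1-/-), the gene of a chitinase-like protein, both fed the HFHC diet for 16 weeks. The 2 genotypes of the pool were marked by tags in a further sample that was not used here, so no cell of the pool was assigned a genotype. The labels name parenchymal cells and the study's methods name non-parenchymal cells, and hepatocyte-like clusters made up 30.2% of the kept cells of the WT library and 49.5% of those of the pool. The number and age of the mice behind each library are not given in the sources used here. With 1 library per group there was no replicate and no test, and diet, genotype mix, capture and library cannot be told apart.

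Fc gamma receptors tell a cell that an antigen is coated with IgG. Fcgr1, Fcgr3 and Fcgr4 are activating receptors: they signal through the gamma chain made by Fcer1g, which carries an immunoreceptor tyrosine-based activation motif (ITAM) and also serves other receptors of myeloid and natural killer (NK) cells. Fcgr2b carries an inhibitory motif (ITIM) in its own tail, dampens activating receptors and the B cell receptor, and in liver sinusoids is known for taking up small immune complexes. Fcgrt encodes the neonatal Fc receptor, which pairs with beta-2 microglobulin inside the cell and returns IgG and albumin to the blood instead of letting them be degraded.

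Fcgr2b, Fcgr4, Fcgr3 and Fcer1g lie in this order within 275.7 kb of mouse chromosome 1, chr1:170958617-171234365 of GRCm38. Fcgr1 lies apart on chromosome 3 and Fcgrt on chromosome 7. All 6 genes matched a RefSeq promoter entry, and Fcgr3 matched 2 entries whose starts lie 9 bases apart. The 250 bases before the RefSeq start of the 4 receptor genes that are compared below are shown because these genes had different orders of cell classes. They are from GRCm38.p6 and are written 5′ to 3′ on the gene's strand, with capitals marking GAGGAAG on either strand, the core of the site of the myeloid factor PU.1, and TTCNNNGAA, the core of the GAS site that STAT factors bind.
Fcgr2b, chr1:170976072-170976321, minus strand: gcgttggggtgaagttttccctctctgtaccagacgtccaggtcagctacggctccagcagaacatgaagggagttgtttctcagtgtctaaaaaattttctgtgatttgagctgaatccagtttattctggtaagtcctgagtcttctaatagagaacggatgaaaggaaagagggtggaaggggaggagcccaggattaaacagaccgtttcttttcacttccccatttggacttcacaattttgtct
Fcgr1, chr3:96293970-96294219, minus strand: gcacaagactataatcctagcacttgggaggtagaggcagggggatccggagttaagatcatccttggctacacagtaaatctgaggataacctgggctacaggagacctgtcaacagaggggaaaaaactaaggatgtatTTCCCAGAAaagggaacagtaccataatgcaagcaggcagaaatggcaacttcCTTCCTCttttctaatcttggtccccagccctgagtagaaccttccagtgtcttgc
Fcgr3, chr1:171059404-171059653, minus strand: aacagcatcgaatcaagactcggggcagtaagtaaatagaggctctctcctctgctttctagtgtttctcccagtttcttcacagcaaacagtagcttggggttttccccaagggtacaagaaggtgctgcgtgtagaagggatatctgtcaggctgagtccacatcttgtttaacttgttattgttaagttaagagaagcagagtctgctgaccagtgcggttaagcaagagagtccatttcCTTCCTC
Fcgr4, chr1:171018676-171018925, plus strand: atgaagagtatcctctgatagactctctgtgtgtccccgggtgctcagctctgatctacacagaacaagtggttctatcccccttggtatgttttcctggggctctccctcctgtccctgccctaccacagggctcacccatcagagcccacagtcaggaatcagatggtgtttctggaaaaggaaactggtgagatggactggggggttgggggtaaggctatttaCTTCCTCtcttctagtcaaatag

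GAGGAAG stood in the windows of the 3 activating receptor genes, on the strand opposite to the gene, at 23 to 17 bases before the start of Fcgr4, at 7 to 1 bases before the printed start of Fcgr3 and at 56 to 50 bases before the start of Fcgr1. It was in neither the Fcgr2b window nor those of Fcer1g and Fcgrt, while 10.6% of the 32851 mouse promoter windows of this length held it. TTCNNNGAA stood only in the Fcgr1 window among the 6 genes, at 109 to 101 bases before the start, and 7.02% of all windows held it. Both motifs were chosen after the promoters had been read, so these matches describe letters and not sites in use. RefSeq places the starts of Fcgr2b and Fcgr3 inside longer gene models of a GENCODE annotation, so other starts of these genes have other windows. That annotation is a later release than the one used for counting, which was not examined here.

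In the files, the WT library held 30734 cells and 53720863 UMIs, and the HFHC pool 21601 cells and 71981673 UMIs. The study's limits of 200 to 4000 genes and at most 25% mitochondrial UMIs left 23346 and 19625 cells with medians of 1322.5 and 1622 UMIs, and 756 cell indices occurred in both libraries. Clusters were named from marker lists that held none of the 6 genes, though the B cell list held Fcmr, an IgM receptor gene. Each of the 7 classes held UMIs of all its listed markers in both libraries except MoMFs, which lacked 1 of 10 in the WT library. KCs numbered 2577 and 383 cells, MoMFs 89 and 101, classical monocytes 354 and 513, patrolling monocytes 104 and 75, neutrophils 3142 and 339, B cells 1344 and 818 and LSECs 2632 and 649, in the WT library and the pool respectively. Levels are counts-per-million values (CPM), the UMIs of a gene scaled to all UMIs of its class, with exact 95% intervals that cover counting error only. Chil1, the gene deleted in part of the pool, had 2443 UMIs, 49.3 CPM, in the WT library and 232 UMIs, 4.46 CPM, in the pool, and 622 and 236 CPM in neutrophils, where most of its UMIs lay. This checks no label, since the pool mixes genotypes. A UMI marks the 3′ end of a transcript and is not divided by transcript length, and how well each gene is captured is not known, so a level is compared between classes and not between genes. T cells, which are not known for Fcgr1, Fcgr3 or Fcgr4, gave the background for these genes. For Fcgr2b, Fcer1g and Fcgrt they were a class to compare with, since their own transcripts of these genes were not told from background.

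Fcgr2b was an endothelial gene in these livers. Its level in LSECs was 4689 CPM (4635 to 4744) in the WT library and 3717 CPM (3657 to 3777) in the HFHC pool, the highest of the 14 classes in both. LSECs held 85.7% and 75.5% of all Fcgr2b UMIs of the kept cells. LSECs thinned to 2000 UMIs each held a median of 10 Fcgr2b UMIs in the WT library, with quartiles of 5 and 13.2 and a highest cell of 32, and a median of 7 in the pool, with quartiles of 4 and 10 and a highest cell of 27. Fcgr2b UMIs were thus present in nearly all LSECs: 94.5% of WT cells and 95.4% of pool cells thinned to 2000 UMIs had at least 1, against 4.11% and 2.70% of T cells treated the same way. Without thinning the shares were 91.4% and 97.4% of LSECs and 3.83% and 4.34% of T cells, at median depths of 2057.5 and 5704 UMIs in LSECs and 1854 and 3438 in T cells.

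Classical monocytes came next, with 700 CPM of Fcgr2b (658 to 745) in the WT library and 543 CPM (518 to 569) in the pool. The LSEC level was 6.70-fold (6.29 to 7.14) and 6.84-fold (6.51 to 7.19) above it. MoMFs followed with 425 and 444 CPM and patrolling monocytes with 353 and 227 CPM. In the WT library the intervals of MoMFs, type 2 dendritic cells and patrolling monocytes overlapped, so their order there was not resolved. In the pool B cells, patrolling monocytes and type 2 dendritic cells had overlapping intervals and MoMFs stood above them.

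B cells, in which Fcgr2b is the classical Fc gamma receptor, read 202 CPM (182 to 223) and 227 CPM (209 to 247). This was 7.12-fold (5.95 to 8.55) and 13-fold (10.9 to 15.5) above T cells, at 28.4 and 17.5 CPM. Neutrophils read 71.0 and 69.3 CPM, above T cells by 2.5-fold (2.05 to 3.05) and 3.96-fold (2.86 to 5.40). Markers of LSECs in neutrophils reached 0.946% and 0.535% of their own LSEC level, while Fcgr2b reached 1.51% and 1.86% of its LSEC level there.

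KCs were at the other end of the scale. They read 13.1 CPM of Fcgr2b (11.2 to 15.2; 172 UMIs in 2577 cells) in the WT library and 11.9 CPM (8.54 to 16; 42 UMIs in 383 cells) in the HFHC pool. Among the kept cells this lay below every other class except, in the pool, the 27 cholangiocytes, which held 1 UMI. T cells exceeded KCs 2.17-fold (1.75 to 2.69) and 1.48-fold (1.05 to 2.12), and LSECs exceeded them 358-fold (308 to 418) and 314-fold (232 to 435). At 2000 UMIs per cell, 2.60% of WT and 2.14% of pool KCs had a Fcgr2b UMI, no more than the T cell shares of 4.11% and 2.70%. LSEC markers stood at 1.81% and 2.0% of their LSEC level in KCs, where Fcgr2b stood at 0.279% and 0.319% of its own. The KCs were not uniform in the WT library: a cluster of 624 shallower cells, with a median of 1488 UMIs, read 35.2 CPM (25.8 to 47.0) with a Fcgr2b share of 2.39%, overlapping the T cells, and a cluster of 1904 cells with a median of 5662.5 UMIs read 10.5 CPM (8.70 to 12.5) with a share of 0.634%. In the pool 57 and 314 cells of these clusters read 7.06 CPM (0.854 to 25.5) and 11.9 CPM (8.42 to 16.3).

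One limit on cell size moved the value in the pool. The limit of 4000 genes per cell left out 549 cells of the HFHC pool and 23 of the WT library with KC markers, more cells in the pool than the 383 it kept. These large cells, with medians of 23043 and 17261 UMIs, read 56.3 CPM (52.4 to 60.5) and 59.8 CPM (38.7 to 88.3) of Fcgr2b, above the T cells of their library. With them the KC level in the pool was 46.9 CPM in place of 11.9, and it was 34.8 CPM when the libraries were clustered without integration, both above the 17.5 CPM of the kept T cells of the pool. That KCs read less Fcgr2b than T cells in the pool thus holds for the kept cells of the integrated clustering and not with these settings.

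**Figure D1:**
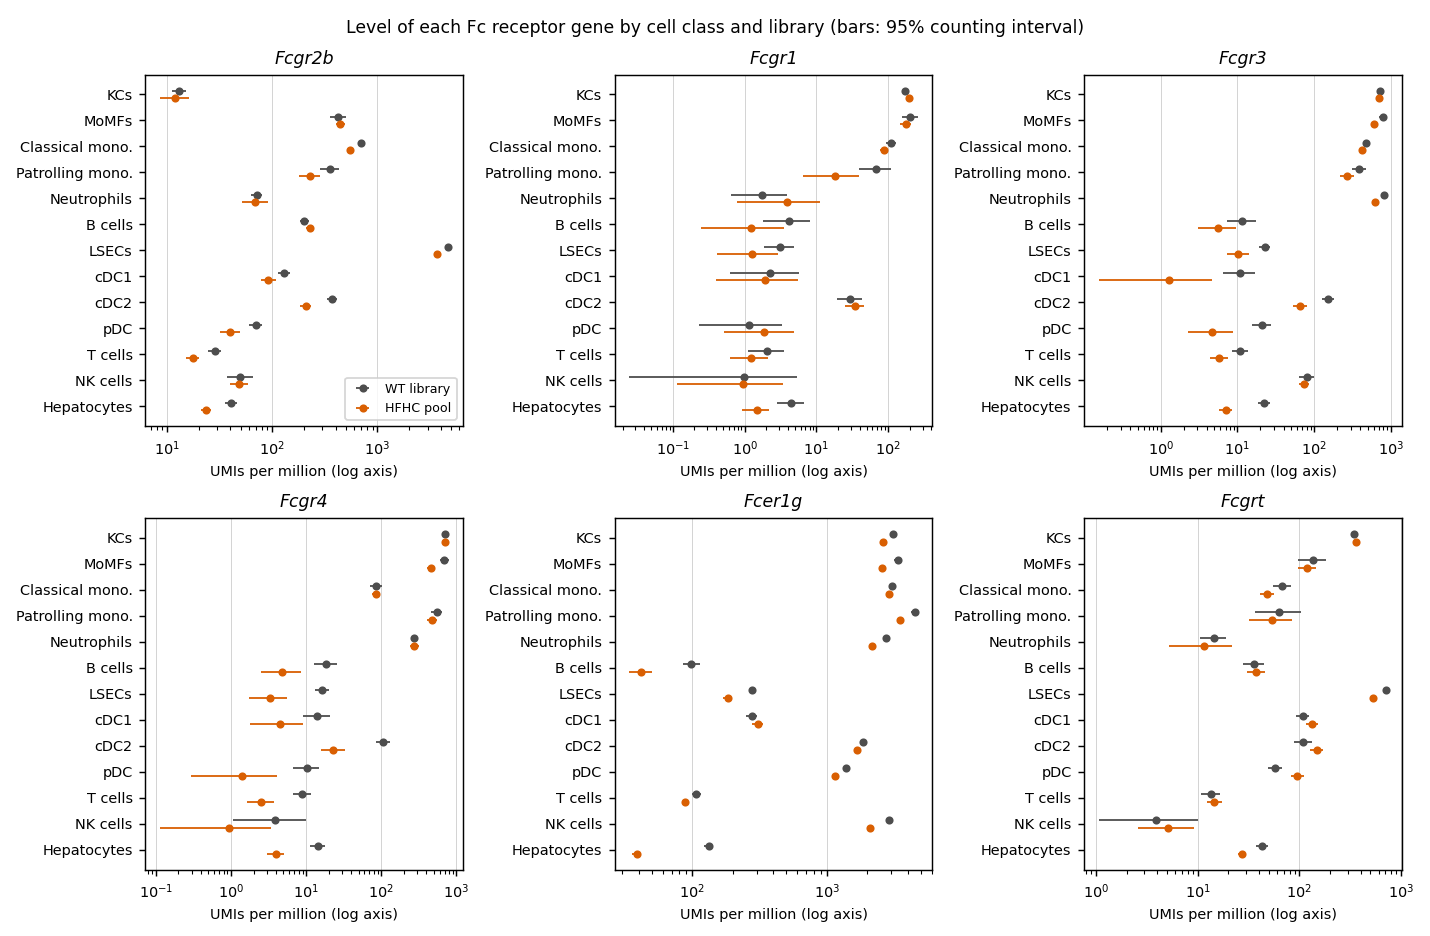
Level of each of the 6 genes in CPM (x axes, logarithmic) by cell class (rows), with dots for the WT library (grey) and the HFHC pool (orange) and bars for 95% counting intervals; cholangiocytes are left out. Fcgr2b was highest in LSECs, at 4689 and 3717 CPM, and lowest in KCs, at 13.1 and 11.9 CPM, while Fcgr1 and Fcgr4 were near or at their highest in KCs.

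The activating receptor genes were read in the phagocytes, each with its own order of classes. Fcgr1, the high-affinity receptor for monomeric IgG, was a macrophage gene. KCs read 171 CPM (164 to 179) and 194 CPM (180 to 209) and MoMFs 203 CPM (156 to 260) and 174 CPM (147 to 205), with intervals that overlapped in both libraries. Classical monocytes read 111 and 87.4 CPM, so the KC level was 1.55-fold (1.32 to 1.83) and 2.22-fold (1.93 to 2.56) higher. Patrolling monocytes read 67.4 CPM from 17 UMIs and 17.9 CPM from 6 UMIs. Neutrophils had 6 Fcgr1 UMIs in 3142 cells and 3 in 339 cells, which put KCs 97.4-fold (44.7 to 266) and 50.4-fold (17.2 to 245) above them. KCs held 72.5% and 51.7% of all Fcgr1 UMIs of the kept cells.

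Fcgr3, a low-affinity receptor shared by phagocytes and NK cells, was shared by all the phagocyte classes. Neutrophils read 826 CPM (796 to 857) and 621 CPM (567 to 679), MoMFs 799 and 606 CPM and KCs 733 CPM (718 to 748) and 694 CPM (667 to 722). Neutrophils stood above KCs in the WT library, at 1.13-fold (1.08 to 1.18), and below them in the pool, at 0.894-fold (0.810 to 0.986). Classical monocytes read 482 and 418 CPM and patrolling monocytes 388 and 268 CPM. NK cells read 80.0 and 74.4 CPM, 7.31-fold (5.24 to 10.2) and 13-fold (9.52 to 17.9) above T cells, and were the only class in which Fcgr3 made up over 90% of the activating UMIs in both libraries, at 94.3% and 97.5%.

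Fcgr4, a receptor for the IgG2 subclasses of the mouse, separated the 2 kinds of monocyte. Patrolling monocytes read 547 CPM (459 to 646) and 477 CPM (406 to 557), and classical monocytes 84.9 CPM (70.5 to 101) and 85.6 CPM (75.9 to 96.2). The gap was 6.44-fold (5.01 to 8.28) in the WT library and 5.57-fold (4.56 to 6.79) in the HFHC pool. Fcgr2b went the other way between the same classes, higher in classical monocytes by 1.99-fold (1.60 to 2.5) and 2.40-fold (1.91 to 3.06). KCs read 710 CPM (695 to 724) and 704 CPM (676 to 732) of Fcgr4, 2.57-fold (2.40 to 2.75) and 2.55-fold (2.22 to 2.95) above neutrophils at 276 CPM in both libraries. MoMFs stood near KCs in the WT library, at 693 CPM, and below them in the pool, at 457 CPM (412 to 505).

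At 2000 UMIs per cell, 74.2% and 70.0% of KCs had a Fcgr3 UMI and 72.9% and 71.6% a Fcgr4 UMI, against 2.28% and 1.08% of T cells for Fcgr3 and 1.37% and 0.582% for Fcgr4. Unthinned, the KC shares were 84.8% and 89.6% for Fcgr3 and 82.9% and 86.4% for Fcgr4. Most KCs therefore carried transcripts of both genes, with a median of 1 UMI of each per 2000 UMIs in both libraries.

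Fcer1g, the chain that Fcgr1, Fcgr3 and Fcgr4 signal through, was read in every class that read these receptors. Patrolling monocytes had the highest level, 4494 CPM (4237 to 4764) and 3505 CPM (3308 to 3711), 1.46-fold (1.37 to 1.54) and 1.35-fold (1.26 to 1.43) above KCs at 3086 and 2605 CPM. NK cells read 2895 and 2084 CPM although their receptor levels were low, and held 34.1 and 27.3 Fcer1g UMIs for each activating receptor UMI. KCs held 1.91 and 1.64, MoMFs 1.98 and 2.09, neutrophils 2.48 and 2.39 and monocytes of both kinds between 4.48 and 4.90. The ratio was thus lowest in macrophages and neutrophils, and it moved little between libraries within each of these classes. B cells read 98.4 and 41.5 CPM, at or below T cells with 107 and 88.8 CPM.

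Fcgrt, whose product recycles IgG and albumin, was highest in the cells that line the sinusoid. LSECs read 712 CPM (691 to 734) and 524 CPM (502 to 547), and KCs 343 CPM (333 to 353) and 357 CPM (337 to 377). LSECs stood above KCs by 2.08-fold (1.99 to 2.16) and 1.47-fold (1.37 to 1.58), and LSECs gave 39.2% and 39.9% and KCs 40.6% and 24.2% of all Fcgrt UMIs. MoMFs read 135 and 119 CPM, 2.54-fold (1.87 to 3.52) and 2.99-fold (2.44 to 3.70) below KCs, and classical monocytes 67.5 and 48.6 CPM. Neutrophils, with 14.4 and 11.5 CPM, overlapped T cells at 13.5 and 14.6 CPM in their intervals. Fcgrt was therefore the one gene of the 6 that was high in both LSECs and KCs and separated KCs from neutrophils by 23.9-fold (18.0 to 32.3) and 30.9-fold (16.2 to 67.7).

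The share of Fcgr2b among the UMIs of Fcgr1, Fcgr2b, Fcgr3 and Fcgr4 places the inhibitory gene against the activating genes within the same cells, free of the scaling to a total. Since the genes may be captured unequally, the share is compared between classes and libraries and is not a ratio of proteins. Among the kept cells it ran from under 1% in KCs to over 99% in LSECs. KCs had 0.805% (0.690 to 0.934) of 21366 receptor UMIs in the WT library and 0.739% (0.533 to 0.998) of 5683 in the HFHC pool. The pool value was 3.0% with cells over 4000 genes added and 2.18% without integration. LSECs had 99.1% (99.0 to 99.2) of 28875 and 99.6% (99.5 to 99.7) of 14825. The next highest shares were those of B cells, at 85.6% (82.0 to 88.7) and 95.1% (93.1 to 96.7), and type 1 dendritic cells, at 82.7% and 92.3%.

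The other phagocytes lay between. Classical monocytes had 50.8% (48.6 to 53.0) and 47.9% (46.3 to 49.5). Patrolling monocytes had 26.0% (21.5 to 31.0) and 22.9% (18.5 to 27.8), MoMFs 20.1% (17.1 to 23.3) and 26.4% (24.1 to 28.8), and neutrophils 6.04% (5.32 to 6.82) and 7.14% (5.41 to 9.22). MoMFs and KCs, as named from clusters, thus differed in this share although their Fcgr1 and Fcgr3 levels had overlapping intervals in the WT library. MoMFs read 32.5-fold (25.7 to 41.0) and 37.4-fold (27.2 to 52.8) more Fcgr2b than KCs among the kept cells. The pool value rests on the limit of 4000 genes: with the larger cells added, pool MoMFs read 246.1 CPM and pool KCs 46.9 CPM, and their Fcgr2b shares were 15.2% and 3.0%. When cells were named by their own markers alone, the Fcgr2b level of WT MoMFs was 57.0 CPM in place of 425 and their share 3.53% in place of 20.1%, beside 1.13% in WT KCs.

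Within the activating UMIs the 3 receptors had distinct shares. Fcgr4 gave 54.5% and 62.5% in patrolling monocytes, 44.0% and 44.2% in KCs, 40.9% and 36.9% in MoMFs, 25% and 30.6% in neutrophils and 12.5% and 14.5% in classical monocytes. Fcgr1 gave 16.3% and 14.8% in classical monocytes, 12% and 14.1% in MoMFs, 10.6% and 12.2% in KCs, 6.72% and 2.34% in patrolling monocytes and 0.159% and 0.427% in neutrophils. The remainder in each class was Fcgr3, from 35.2% in pool patrolling monocytes to 74.8% in WT neutrophils. For Fcgr4 these 5 classes stood in the same order in both libraries, with overlapping intervals of KCs and MoMFs in the WT library and of MoMFs and neutrophils in the pool. For Fcgr1 the interval of MoMFs overlapped those of KCs and of classical monocytes in both libraries, that of patrolling monocytes overlapped those of KCs and MoMFs in the WT library and that of neutrophils in the pool, and the order of these neighbours was not resolved.

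**Figure D2:**
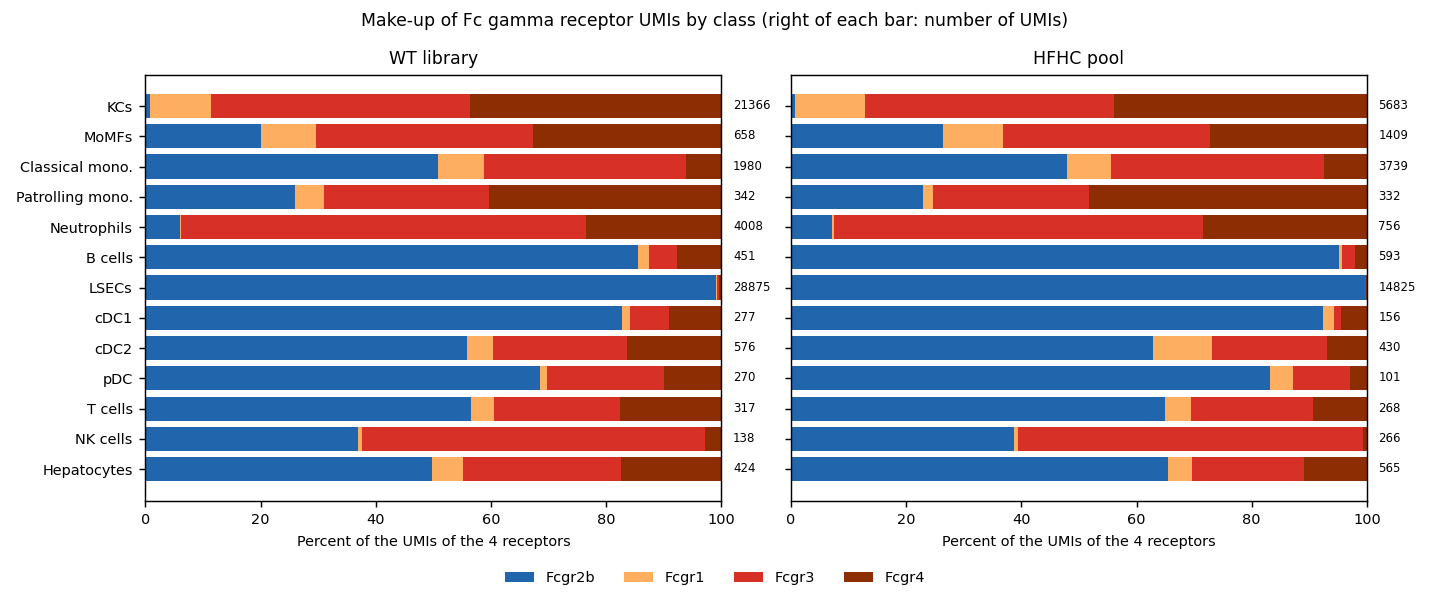
Share of each of the 4 receptor genes in their summed UMIs (x axes, percent) by cell class (rows) for the WT library and the HFHC pool, with the number of receptor UMIs to the right of each bar. Fcgr2b filled 99.1% and 99.6% of the LSEC bars and under 1% of the KC bars, and 50.8% and 47.9% of those of classical monocytes.

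Shares of summed UMIs do not say whether single cells hold both kinds of receptor transcript. After thinning to 2000 UMIs, 92.1% of 2074 WT KCs and 92.0% of 327 pool KCs had activating UMIs and no Fcgr2b, and 2.51% and 2.14% had both. LSECs were the reverse: 89.9% of 1356 and 93.7% of 605 had Fcgr2b and no activating UMI, and 4.65% (3.59 to 5.91) and 1.65% (0.795 to 3.02) had both. Classical monocytes held both in the same cell in 44.9% (39.3 to 50.5) of 321 and 36.6% (32.4 to 41.0) of 500 cells. The product of the separate shares, the value for independent detection, was 44.0% and 34.1% there.

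MoMFs held both in 42.9% (30.5 to 56.0) of 63 and 40.0% (30.3 to 50.3) of 100 cells, against products of 40.8% and 40.0%. Patrolling monocytes held both in 33.8% (22.6 to 46.6) of 65 and 16.4% (8.79 to 27.0) of 73 cells. Neutrophils were mostly activating only, 64.5% of 93 WT cells and 63.6% of 206 pool cells, but 2000 UMIs left only these of 3142 and 339 neutrophils. In B cells 27.3% of 143 and 30.4% of 681 had Fcgr2b alone and 65.7% and 67.4% had none of the 4 genes.

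**Figure D3:**
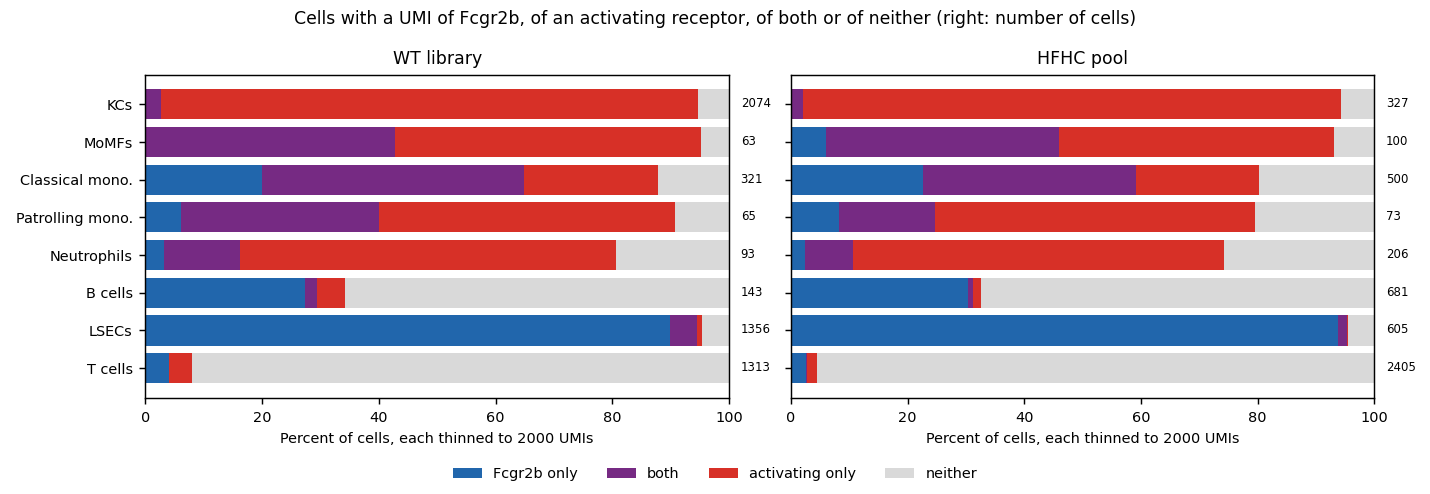
Percent of cells (x axes), each thinned to 2000 UMIs, with a UMI of Fcgr2b alone, of an activating receptor alone, of both or of neither, by class (rows) for the WT library and the HFHC pool, with the number of cells to the right. KCs were 92.1% and 92.0% activating only, LSECs 89.9% and 93.7% Fcgr2b only, and classical monocytes held both in 44.9% and 36.6% of cells.

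Genes with at least 100 UMIs over both libraries in a class were compared as the log2 ratio of CPM, HFHC pool over WT library, with 1 UMI added, and a ratio past 2-fold was counted. Of the 42 pairs of a gene and a class, 34 reached 100 UMIs. The others were Fcgr1 and Fcgrt in patrolling monocytes and neutrophils, Fcgr1, Fcgr3 and Fcgr4 in B cells and Fcgr1 in LSECs. In KCs 0 of 6 genes passed 2-fold, where 7.54% of 8828 genes did, and likewise 0 of 6 in MoMFs (10.1% of 1974 genes), 0 of 6 in classical monocytes (6.07% of 5716), 0 of 4 in patrolling monocytes (7.23% of 996) and 0 of 4 in neutrophils (12.8% of 4312). Beside these background shares, 0 of 4 to 6 genes is no result about the receptor genes.

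The KC ratios on the log2 scale were 0.18 (0.05 to 0.30) for Fcgr1, -0.12 (-0.67 to 0.35) for Fcgr2b, -0.08 (-0.14 to -0.01) for Fcgr3, -0.01 (-0.08 to 0.05) for Fcgr4, -0.24 (-0.28 to -0.21) for Fcer1g and 0.06 (-0.04 to 0.15) for Fcgrt. The Fcgr2b value in KCs was 1.69 when cells over 4000 genes were added and 1.29 without integration, both past 2-fold. The 10 MoMF markers stood at 1899 CPM in WT KCs and 4306 CPM in pool KCs. This sum does not mark MoMFs alone: the list holds C1qa, while C1qb and C1qc led the KC cluster. It also holds Trem2 and Cd9, which the paper cites as up-regulated in KCs in steatohepatitis. Without integration the largest KC cluster held 1550 WT cells and 0 pool cells while another held 1 and 363. The part of these differences between the KCs of the libraries in the ratios was not tested. In classical monocytes Fcgr2b was lower in the pool, at -0.37 (-0.48 to -0.25), and Fcgr4 stood at 0.00 (-0.30 to 0.33). Without integration 161 WT and 633 pool cells were named classical monocytes. A cluster led by Chil3 and F13a1, with 192 WT and 5 pool cells, was then called mixed. The part of this split in the classical monocyte ratios was not tested.

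In patrolling monocytes Fcgr2b had the lowest ratio of the 4 genes tested, -0.64 (-1.1 to -0.18), and Fcgr4 stood at -0.20 (-0.54 to 0.14). The Fcgr2b ratio there was -1.35, past 2-fold, with cells thinned to 2000 UMIs. In MoMFs Fcgr4 had the lowest ratio, -0.60 (-0.85 to -0.35), and Fcgr2b stood at 0.05 (-0.23 to 0.36), but at 2.64, past 2-fold, when cells were named by their own markers. The 11 KC markers were lower in the pool in these classes, at 820 and 68.6 CPM in patrolling monocytes, 494 and 120.5 CPM in classical monocytes and 2295 and 1505 CPM in MoMFs, and their part in the ratios was not tested. In neutrophils Fcgr3 stood at -0.41 (-0.55 to -0.27) and Fcgr4 at 0.00 (-0.22 to 0.21). Fcer1g was below 0 with its interval in all 7 classes, from -0.08 (-0.13 to -0.03) in classical monocytes to -1.24 (-1.61 to -0.89) in B cells. Of the genes tested, 21.5% in patrolling monocytes to 41.5% in classical monocytes had a lower ratio than Fcer1g. KCs, MoMFs and neutrophils lay between, so its place in the myeloid classes was not unusual. In LSECs 13.7% of genes had a lower ratio and in B cells 1.03%. How many of all genes had an interval below 0 was not counted. Over all genes tested, the median ratio of a class lay between -0.02 and 0.03.

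B cells and LSECs held the 3 ratios past 2-fold, all of them lower in the pool and all of genes with low levels in those cells. In B cells 1 of 3 genes tested passed, where 6.22% of 5898 genes did: Fcer1g read 188 UMIs, or 98.4 CPM, in the WT library and 103 UMIs, or 41.5 CPM, in the pool. Markers of other cells were lower beside it, the 11 KC markers at 262 and 137 CPM and the 10 neutrophil markers at 408 and 37.1 CPM. All 11 KC markers had a UMI in both libraries, and 10 and 9 of the neutrophil markers did. Tyrobp, the other ITAM adaptor of myeloid cells, stood at -1.06 (-1.40 to -0.73) in the same cells. The part of other cells' RNA in the Fcer1g ratio was not tested.

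In LSECs 2 of 5 genes tested passed, where 14.2% of 8928 genes did and 4.54% were lower past 2-fold. Fcgr3 went from 139 UMIs, 22.8 CPM, to 41 UMIs, 10.3 CPM, a log2 ratio of -1.12 (-1.68 to -0.63), and Fcgr4 from 100 UMIs, 16.4 CPM, to 13 UMIs, 3.27 CPM, a ratio of -2.23 (-3.28 to -1.48). In WT LSECs these levels were 3.11% and 2.31% of the KC levels, and the 11 KC markers stood at 3.05% of theirs. In the pool they were 1.49% and 0.465%, with KC markers at 2.74%. A doublet caller marked 397 of the 2632 WT LSECs and none of the 649 in the pool, and these cells held 66.9% of the Fcgr3 and 60.0% of the Fcgr4 UMIs of WT LSECs. Without them WT LSECs read 9.32 CPM of Fcgr3 and 8.11 CPM of Fcgr4, the Fcgr3 ratio turned to 0.15 and the Fcgr4 ratio was -1.24, still past 2-fold.

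Fcgr2b itself was lower in pool LSECs, at a log2 ratio of -0.34 (-0.36 to -0.31), and so was Fcgrt, at -0.44 (-0.52 to -0.37). In these cells the 10 hepatocyte markers stood at 1794 and 8154 CPM and the 12 LSEC markers at 32540 and 22301 CPM, in the WT library and the pool. Their part in these ratios was not tested.

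**Figure D4:**
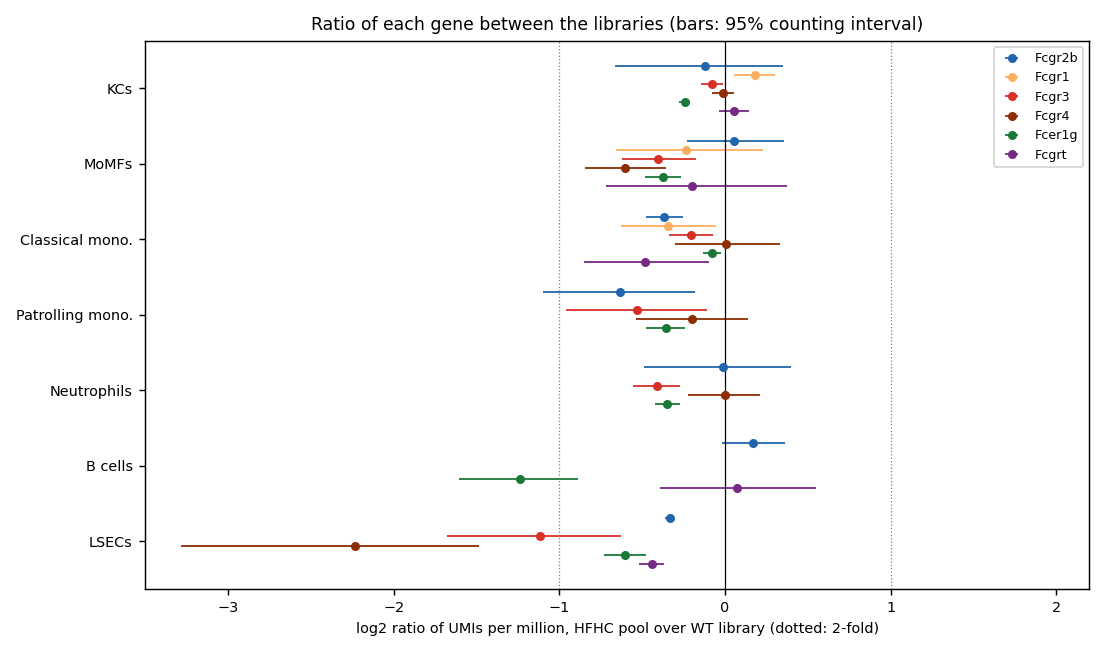
Log2 ratio of CPM, HFHC pool over WT library (x axis), for each gene with at least 100 UMIs in a class (rows), with 95% counting intervals and dotted lines at 2-fold. The phagocyte ratios lie within 2-fold, and the 3 past it are Fcer1g in B cells and Fcgr3 and Fcgr4 in LSECs.

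Dendritic cells and hepatocytes held the other ratios past 2-fold. Type 2 dendritic cells read 367 CPM of Fcgr2b (328 to 409) in the WT library and 208 CPM (184 to 235) in the HFHC pool, 2.83-fold (2.38 to 3.36) and 2.26-fold (1.84 to 2.79) above type 1 dendritic cells. In type 2 cells 2 of 5 genes tested passed 2-fold, where 6.76% of 3508 genes did: Fcgr3 stood at a log2 ratio of -1.20 (-1.61 to -0.80), from 153 to 66.3 CPM, and Fcgr4 at -2.18 (-2.85 to -1.60), from 107 to 23.1 CPM. The 11 KC markers stood beside them at 2070 and 104.9 CPM, or 9.33% and 0.545% of their KC level, and 6.03% of the WT cells and 0% of the pool cells were called doublets. The part of other cells' RNA in these ratios was not tested. The Fcgrt level of type 2 dendritic cells was 109 and 148 CPM.

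In hepatocyte-like cells, with medians of 521 and 1086 UMIs, 3 of 5 genes tested passed 2-fold, where 13.4% of 9151 genes did, and all 3 were lower in the pool. Fcer1g read 132 and 38.5 CPM, Fcgr3 22.4 and 7.0 CPM and Fcgr4 14.3 and 3.95 CPM. The 11 KC markers were also lower there, at 612 and 253.5 CPM, or 2.76% and 1.32% of their KC level, and their part in these ratios was not tested. Fcgrt, which hepatocytes are known to use for albumin, read 42.8 and 27.2 CPM, below KCs and LSECs in both libraries.

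Among the kept cells, the Fcgr2b share differed between the libraries by at most 6.34 percentage points in the 5 myeloid classes. The difference, pool minus WT, was -0.0660 points (-0.309 to 0.217) in KCs, -3.13 (-9.79 to 3.57) in patrolling monocytes and 1.1 (-0.795 to 3.30) in neutrophils, with intervals that held 0. These values moved with the processing: KCs had 2.10 points with cells over 4000 genes added and 1.29 without integration, and after thinning to 2000 UMIs patrolling monocytes had -14.5 and neutrophils -8.02. Classical monocytes were 2.93 points lower (-5.68 to -0.183). MoMFs were higher by 6.34 points (2.35 to 10.2) and B cells by 9.52 points (5.79 to 13.4). The MoMF difference was -4.66 points when cells over 4000 genes were added. The B cell shares rested on 65 activating UMIs in 1344 WT cells and 29 in 818 pool cells. LSECs were higher by 0.496 points (0.340 to 0.645), and the difference was -0.0215 without the cells called doublets. Naming cells by their own markers gave differences of 27.1 points in B cells, 19.6 in patrolling monocytes and 17.8 in MoMFs.

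The 2 clusters that made up the classical monocytes behaved differently, a split looked at after the class values were known. The cluster led by F13a1, Chil3, Cd177, Fn1 and Ly6c2 had a Fcgr2b share of 50.7% (47.2 to 54.1) in the WT library and 38.7% (35.9 to 41.6) in the pool, and its Fcgr2b level was 645 CPM (585 to 710) and 349 CPM (317 to 383). The cluster led by Prg4, Ly6i and Saa3 had shares of 50.9% (48.0 to 53.8) and 51.9% (49.9 to 53.8) and levels of 746 and 664 CPM. Its Fcgr4 level was higher as well, 119 and 116 CPM against 44.4 and 35.7 CPM. The pool had more of its classical monocytes in the latter cluster, 298 of 513 against 166 of 354, so the class value joins clusters of unequal size. The MoMF marker score was 0.91 in this cluster and -0.48 in the F13a1 cluster. With resolution 1.0 in the first clustering, Prg4 and Saa3 were among the genes that led the F13a1 cluster instead. Without integration the cluster led by Chil3 and F13a1 held 192 WT and 5 pool cells and was called mixed.

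KCs could also be divided by Timd4, a marker of resident KCs, again after the class values were known and among cells with at least 2000 UMIs. In the pool, the 63 KCs without a Timd4 UMI read 41.2 CPM of Fcgr2b (26.7 to 60.8; 25 UMIs) and the 264 with one 4.89 CPM (2.67 to 8.21; 14 UMIs), above and below the T cells of the pool at 17.5 CPM (15.0 to 20.3). In the WT library the 119 and 1955 cells read 11.7 CPM (3.8 to 27.3) and 11.9 CPM (10.1 to 14.0). Fcgrt followed Timd4 in the pool, at 185 CPM (152 to 222) without and 393 CPM (371 to 417) with a Timd4 UMI, and in the WT library stood at 309 CPM (259 to 367) and 346 CPM (336 to 357). A Timd4 UMI is more often missed in shallower cells, and these had medians of 10544 against 11626 UMIs in the pool and 3185 against 5733 in the WT library.

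LSECs fell into 2 clusters. The one led by Tspan7, Plpp3, Ptprb and Kdr read 5260 and 4572 CPM of Fcgr2b, and the other, led by Hspg2, Egfl7 and Adgrf5, 3726 and 2744 CPM. Fcgrt followed the same order, at 764 and 633 CPM against 626 and 401 CPM. The second cluster was shallower in the WT library, with a median of 1264 against 2701.5 UMIs, and had the larger share of activating UMIs there, with a Fcgr2b share of 98.0% against 99.6%.

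The genes that act downstream of these receptors were described as lists. ITAM signalling genes, which carry the activating signal, reached 100 UMIs in 98 pairs of gene and class over the 7 classes, of which 6 were past 2-fold higher and 2 lower in the pool. Since 6.07% to 14.2% of all genes tested in these classes were past 2-fold, nothing is read from this count or from those of the other lists. The higher ones were Vav1, a guanine nucleotide exchange factor, in KCs at 1.73 (1.55 to 1.91), classical monocytes at 1.64 (1.21 to 2.15), neutrophils at 1.93 (1.54 to 2.31) and B cells at 1.22 (0.83 to 1.64), and the adaptor Lcp2 at 1.85 (1.63 to 2.06) and the paracaspase Malt1 at 1.42 (0.93 to 1.87) in neutrophils. Vav1 was also past 2-fold in T cells and dendritic cells, so it was not higher in phagocytes alone. Among the lower ones was the kinase Fgr in LSECs, at -1.14 (-1.73 to -0.64).

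The list's median ratio was 0.30 in neutrophils, 0.22 in KCs, 0.08 in patrolling monocytes, 0.03 in classical monocytes, -0.09 in MoMFs and in B cells and -0.42 in LSECs, so it had no common direction over the 7 classes. ITIM signalling genes, the phosphatases and Dok adaptors that carry the inhibitory signal, had 1 of 25 pairs higher and 2 lower. Dok1 stood at 1.09 (0.51 to 1.82) and Dok2 at -1.21 (-1.62 to -0.81) in classical monocytes, and the lipid phosphatase Inppl1 at -1.15 (-1.40 to -0.91) in LSECs. The ITIM list's median was -0.58 in LSECs, -0.38 in B cells, -0.28 in KCs and in neutrophils, near 0 in MoMFs and classical monocytes and 0.40 in patrolling monocytes, where 1 gene was tested. The ITAM adaptors had 1 of 12 pairs higher, Hcst in LSECs at 1.26 (0.80 to 1.75), and 2 lower, Tyrobp in LSECs at -1.21 (-1.41 to -1.03) and in B cells.

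Among the 7 classes, other Fc receptors past 2-fold were found in B cells and LSECs. Fcmr, the IgM receptor of B cells, went from 1482 to 691 CPM there, a log2 ratio of -1.1 (-1.19 to -1.01), while Fcer2a, their low-affinity IgE receptor, stood at 818 and 808 CPM, a ratio of -0.02 (-0.11 to 0.08). Fcmr was also among the markers that named the B cell clusters. Pigr, the transporter of polymeric immunoglobulin, was 1.04 (0.85 to 1.24) higher in pool LSECs. It also led a cluster of hepatocyte-like cells, whose markers were higher in pool LSECs. Pigr itself was past 2-fold lower in the pool in hepatocyte-like cells and in T cells. The part of hepatocyte RNA in the LSEC ratio was not tested. The ligand list held IgG genes and also the IgM gene Ighm, which is not a ligand of the Fc gamma receptors. Of its 12 pairs of gene and class tested, 6 were past 2-fold higher and 0 lower, among them pairs of Ighm. Nearly all IgG UMIs of pool LSECs came from 2 cells.

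The IgG heavy chain genes, whose products the Fc gamma receptors bind, were read mostly in the pool. The sum of Ighg1, Ighg2b, Ighg2c and Ighg3 was 170 UMIs, 3.43 CPM, over all kept WT cells and 14494 UMIs, 278 CPM, over all kept pool cells. In the pool, 29 cells with at least 10 such UMIs, 0.148% of cells, held 95.9% of them, and in the WT library 5 such cells held 48.8%. Ighg2b in B cells went from 13 UMIs, 6.80 CPM, to 185 UMIs, 74.6 CPM, and Ighg3 from 15 to 100 UMIs. In pool B cells 8 cells with at least 10 UMIs of the 4 genes held 54.9% of them, and no WT B cell held as many as 10. LSECs held 0 and 1893 UMIs of Ighg2c, and 2 cells held 98.8% of the 4 genes' UMIs in pool LSECs, the highest 1878. The other genes of the ligand list past 2-fold were Ighm and Crp. Ighm stood at 3.19 (3.02 to 3.38) in LSECs and 2.52 (2.18 to 2.87) in KCs. It encodes the IgM heavy chain, which is not a ligand of the Fc gamma receptors. Crp stood at 1.80 (1.22 to 2.46) in LSECs. Crp is a hepatocyte product, and the part of hepatocyte RNA in its ratio was not tested.

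Of the partners of Fcgrt, B2m stayed within 2-fold in all 7 classes. The log2 ratio of Alb, a hepatocyte product and the other cargo of the receptor, was 2.2 (2.15 to 2.26) in LSECs and -1.01 (-1.13 to -0.90) in KCs. The sum of the hepatocyte markers moved the same way, in LSECs as given above and in KCs from 729 to 386 CPM. Alb is itself one of these markers, so this is partly built in. Alb alone read 405 and 200 CPM in KCs and 579 and 2666 CPM in LSECs, in the WT library and the pool. The part of hepatocyte RNA in the Alb ratios was not tested.

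The 6 genes also differed in which other genes followed them. Over 28 points, 14 classes in each library, log2(CPM + 10) of 11749 genes was set against each member by Pearson correlation, a description, since the points share libraries and each class occurs as a pair. Fcgr3 and Fcgr4 were most alike among the members, with r = 0.912, followed by Fcgr3 and Fcer1g with 0.834 and Fcgr1 and Fcgr4 with 0.794. Fcgr2b had r of 0.130 to 0.187 with the other receptor genes and Fcer1g, and 0.450 with Fcgrt. The genes nearest to Fcgr2b were the endothelial Nrp2 (0.833), Cd300lg (0.793) and Flt1 (0.791). Axl (0.964), a receptor tyrosine kinase of macrophages, and Ms4a6d (0.943) were nearest to Fcgr1.

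Pilra (0.944), Pilrb1 (0.941) and Klra2 (0.941) were nearest to Fcgr3, and Pilrb1 (0.975), Cd300ld (0.972) and Slc11a1 (0.971) to Fcgr4. Tyrobp (0.953), an adaptor of the same kind, was nearest to Fcer1g, followed by Cers6 (0.862) and Fes (0.856). Id3 (0.891), Cttnbp2nl (0.851) and Stx12 (0.843) were nearest to Fcgrt.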

How the data were processed

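Per the file headers, the authors ran the BD Rhapsody pipeline 1.10.1 with GRCm38 and GENCODE vM19 and deposited UMI counts per cell and gene after its error correction (RSEC), not normalized; the strand used in counting is not given in the sources used here. The labels' processing notes name Seurat. Cells with 200 to 4000 genes and at most 25% mitochondrial UMIs were kept, as in the study. Both libraries were normalized with sctransform 0.4.2 and integrated and clustered with Seurat 5.3.0 in R 4.3.3 (4000 variable genes, 30 components, resolution 0.8, and 0.5 for a second clustering of monocytes and macrophages), with 19 Fc receptor genes left out of the clustering features. Clusters were named from marker lists, and clusters that scored for more than 1 lineage were called mixed and left out of the classes. Doublets were called with scrublet in scanpy 1.11.5, which marked 8.13% of WT and 1.95% of pool cells, and were kept, with their removal as an alternative.

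The UMIs of a class were summed per library in Python 3.11.15 (numpy 2.4.6, pandas 2.3.3), with exact Poisson intervals for levels and exact binomial intervals for shares at 95% from scipy 1.17.1. Ratios between libraries used CPM with 1 UMI added and were read only where a gene's UMIs, summed over the libraries, reached 100. With 1 library per group no p-value was computed. Only the ratios and the exact intervals were tested on simulated data, drawn from the counting model that the intervals assume. The clustering, naming, thinning and doublet steps were not tested in this way. Named genes beyond the 6 were the fixed lists of signalling partners and ligands past 2-fold and the 3 genes most like each member. Some genes that these rules name are not reported here. The members and lists were chosen with earlier results of these data known. Alternatives covered the mitochondrial and gene limits, doublets, integration, resolution, naming from each cell's own markers, clustering features, thinning, the UMIs added and the mean of each cell's CPM. The tag sample held no count table used here.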

Additional observations from a re-analysis of the deposited data

Results flagged for a closer look

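The mixed clusters belong to no named class. They enter the values above only through totals over all kept cells, such as the IgG sum and the shares of a gene's UMIs. They held IgG heavy chain transcripts: the sum of Ighg1, Ighg2b, Ighg2c and Ighg3 was 5045 CPM (4953 to 5138) in the mixed clusters of the HFHC pool and 14.7 CPM (11.4 to 18.6) in those of the WT library. They stand out as a signal in cells outside the named classes. One cluster, led by Igha, Jchain and Ighg2b, had 95 WT and 85 pool cells. It held 11507 IgG UMIs in the pool, 79.4% of those of the pool's kept cells. Its highest marker score was that of plasma cells, 4.55, with 8 of their markers detected. It was called mixed because its basophil score was 3.0. In the pool, 15 mixed cells with at least 10 IgG UMIs held 99.6% of those of the mixed clusters. The highest cell had 3821. These values come from 1 library each, and whether the libraries differ beyond the spread between livers was not tested.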

How the results depend on the processing

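No paired analysis was possible because each group had 1 library. Of 54 recomputed differences in the Fcgr2b share between the libraries, 40 stayed within the counting interval, 12 moved beyond it and 2 whose interval left out 0 changed sign. Changes of sign where the interval held 0 are not counted here. Without the upper limit on genes the difference was 2.10 points in KCs and -4.66 in MoMFs, a change of sign. Without integration it was 1.29 in KCs, and at a mitochondrial limit of 10% it was 10.46 in MoMFs. With classes from each cell's own markers it was -0.499 in KCs, 17.8 in MoMFs, 19.6 in patrolling monocytes, 5.75 in neutrophils, 27.1 in B cells and 0.316 in LSECs. Cells thinned to 2000 UMIs gave -14.5 in patrolling monocytes and -8.02 in neutrophils. In LSECs it was -0.0215 without doublets, a change of sign, and 1.5 with all variable genes in the clustering.

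Of 329 recomputed log2 ratios 51 moved and 1 that was past 2-fold changed sign, that of Fcgr3 in LSECs, 0.15 without doublets. Changes of sign of ratios within 2-fold were not counted. Of 732 levels 138 moved. Of 168 shares of cells with a UMI, recomputed with cells thinned to 1000 UMIs or not thinned, 104 moved. Of 14 shares of genes past 2-fold 4 moved. Ratios that crossed 2-fold were Fcgr2b in KCs (1.69 without the upper limit, 1.29 without integration), Fcgr2b at 2.64 and Fcgrt at -1.30 in MoMFs with own markers, Fcgr2b at -1.35 in patrolling monocytes and -1.15 in neutrophils after thinning, and Fcgr3 in LSECs at -0.93 with 10 UMIs added. Leaving out doublets, the lower mitochondrial limit and thinning all use fewer cells, and the cause of the changes was not tested. Without integration, LSECs had no class of their own and MoMFs had under 20 cells in the pool, so neither has a value there. Few UMIs limit some values in the pool: 42 of Fcgr2b in KCs, 6 of Fcgr1 in patrolling monocytes and 3 in neutrophils.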

Other observations

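The cells over 4000 genes with KC markers had a Fcgr2b share of 4.42% (2.88 to 6.46) in 23 WT cells and 3.62% (3.37 to 3.89) in 549 pool cells, against 0.805% and 0.739% in the kept KCs. Their Fcgr4 level was 577 and 646 CPM. The 56 pool cells over the limit with MoMF markers had a share of 7.67% (6.57 to 8.88), against 26.4% in the kept MoMFs.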
